A study of Rattus norvegicus with 102 samples.

Results

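The extracellular matrix that surrounds hippocampal neurons was described through 9 rat genes, of 26284 genes listed in the Illumina table and 26341 listed in the Ion Proton table. They were Acan, Bcan, Ncan, Vcan, Hapln1, Hapln2, Hapln4, Tnr and Has3, and each was taken as the single entry that carried its symbol. Acan lies on chromosome 1, Bcan, Vcan, Hapln1 and Hapln2 on chromosome 2, Tnr on chromosome 13, Ncan and Hapln4 on chromosome 16 and Has3 on chromosome 19. RNA had been sequenced from CA1, CA3 and the dentate gyrus (DG) of 34 male Fischer 344 rats. The labels spell the strain Fisher 344 and name no transgene and no drug. The 10 young rats had an age of 5 to 6 months and the 24 aged rats of 17 to 22 months. Of the latter, each carried the label unimpaired (n = 12) or impaired (n = 12) from a water maze test of spatial memory. Every rat gave 1 library per subfield on each of 2 instruments, an Illumina and an Ion Proton, so the second instrument repeats the same rats and does not add animals. Values are reads divided by a size factor per library, called normalised reads, errors are SD, and log2 differences are on the scale of log2(normalised reads + 1).

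Perineuronal nets are condensed coats of matrix around the cell body and proximal dendrites of certain neurons, best known around parvalbumin interneurons and, in the hippocampus, also around pyramidal neurons of CA2. Their backbone is hyaluronan, which is made at the cell membrane by hyaluronan synthases. The lecticans, aggrecan, brevican, neurocan and versican, bind hyaluronan at one end, held in place by a link protein, and tenascin-R ties lecticans together at the other. In brain tissue the same molecules also fill the looser matrix between cells and the matrix at nodes of Ranvier, and they are made by neurons, astrocytes and cells of the oligodendrocyte lineage alike.

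Illumina libraries held 3.25 to 42.8 M reads assigned to genes (median 10.7 M), and Ion Proton libraries held 4.47 to 21.4 M (median 9.74 M). The labelled subfields were checked against lists of CA1 pyramidal, CA3 pyramidal and dentate granule markers. Not every gene of the CA3 list marks CA3 over DG, as given below. By these lists, 11 libraries, from 8 rats, were nearer to another subfield than to their own in both tables. Of these 1 was labelled CA1, 6 CA3 and 4 DG, and 7 of the 8 rats concerned had a number from 9000 up. The rat numbers fall in 2 separate series, with 18 rats below 9000 (5 young, 13 aged) and 16 from 9000 up (5 young, 11 aged). The series' design text gives the same counts of young and aged rats for its 2 sites, but the labels do not say which rat came from which site. The libraries are bulk tissue, in which fewer cells of a type and less RNA per cell cannot be told apart.

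Of the 9 genes, 7 were measured well enough to be tested between subfields in both tables. A difference was called where both tables gave the same direction and a limma p under 0.05 after Benjamini-Hochberg adjustment over all genes. In CA1 against CA3, 2 of 7 were called (Acan lower and Hapln1 higher in CA1), where 14.4% of the 13907 genes tested were called. In CA1 against DG, 3 of 7 were called (Acan lower, Bcan and Hapln2 higher in CA1), beside 26.9% of all genes. In CA3 against DG, 2 of 7 were called (Vcan and Hapln2 higher in CA3), beside 28.5% of all genes. The median Illumina difference of the 7 genes was -0.0785, 0.114 and 0.0932 in these comparisons, beside 0.0061, 0.00289 and 0.00994 over all genes. The ranges of the libraries overlapped between subfields for each of the 9 genes in both tables.

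**Figure D1:**
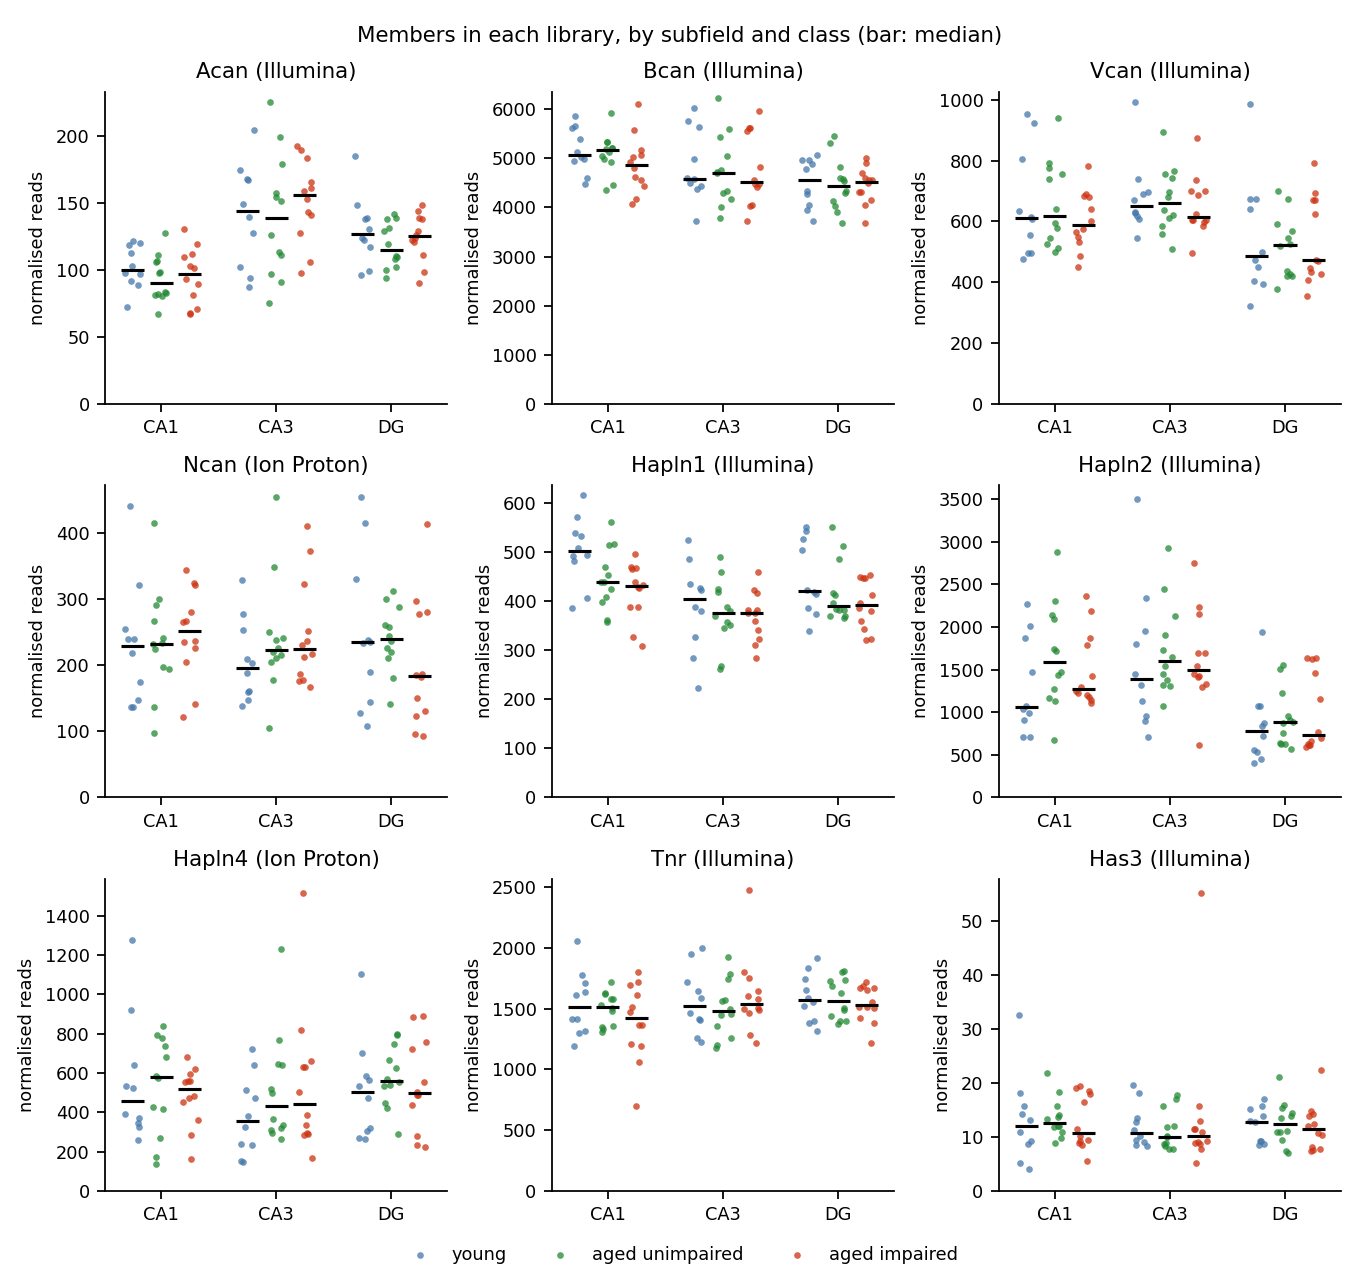
Normalised reads (linear y axis from 0) of each of the 9 genes in every library, by subfield and class; points are libraries and bars are medians. Ncan and Hapln4 are shown from the Ion Proton table and the others from the Illumina table. Acan sits lowest in CA1 (median 97.5) and highest in CA3 (150.0), Hapln2 lowest in DG (803), and the 3 classes overlap in every panel.

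Among the lecticans, Acan (ENSRNOG00000028992) encodes aggrecan, the core proteoglycan of the perineuronal net. In the Illumina table it ranged from 66.9 to 130.0 in CA1 (median 97.5), from 74.8 to 225 in CA3 (median 150.0) and from 90.3 to 185 in DG (median 124). All 34 CA1 libraries lay below the CA3 median, and Acan was lower in CA1 than in CA3 of the same rat in 30 of 34 rats, and in 24 of 34 by the Ion Proton. The log2 difference of CA1 minus CA3 was -0.55 (95% interval -0.69 to -0.40, limma adjusted p = 2.49e-09), and -0.47 by the Ion Proton (adjusted p = 0.000336). Against DG the difference of CA1 was -0.36 (adjusted p = 2.45e-05) and -0.31 by the Ion Proton (adjusted p = 0.0145), with lower values in CA1 in 29 of 34 rats. That call was lost without the 7 rats whose Illumina libraries were the deepest, at -0.34 with an Ion Proton adjusted p of 0.0855. CA3 and DG were not told apart by the rule, with a difference of 0.19 (adjusted p = 0.027) and an Ion Proton adjusted p of 0.251.

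Bcan (ENSRNOG00000018798) encodes brevican, a lectican made by astrocytes and other glia. Its Illumina values lay within 4076 to 6108 in CA1 (median 5043), 3719 to 6233 in CA3 (median 4585) and 3686 to 5456 in DG (median 4512), a narrow spread for each subfield with wide overlap. CA1 exceeded DG by a log2 difference of 0.17 (95% interval 0.09 to 0.25, adjusted p = 0.000191) and by 0.22 in the Ion Proton table (adjusted p = 0.0128), in 27 of 34 rats. A further set of libraries from the same rats, labelled WT, gave 0.08 (adjusted p = 0.149), so the call was lost where that table replaced the Illumina. CA3 lay between the other subfields, and neither of its differences was called.

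Vcan (ENSRNOG00000029212) encodes versican, a large lectican expressed in oligodendrocyte precursors among other cells. CA1 libraries ran from 450.0 to 952 (median 604), CA3 libraries from 497 to 993 (median 634) and DG libraries from 321 to 986 (median 486). All 34 CA3 libraries lay above the DG median, and Vcan was higher in CA3 than in DG of the same rat in 27 of 34. The difference of CA3 minus DG was 0.35 (95% interval 0.21 to 0.49, adjusted p = 1.8e-05) and 0.31 by the Ion Proton (adjusted p = 0.0176). Without the 7 deepest rats it was 0.32 and no longer a call (Ion Proton adjusted p = 0.162). CA1 exceeded DG in the Illumina table alone, by 0.27 (adjusted p = 0.000827, Ion Proton adjusted p = 0.281).

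The link proteins differed in their pattern. Hapln1 (ENSRNOG00000032002), which encodes cartilage link protein, the stabiliser of aggrecan on hyaluronan in nets, ranged from 309 to 615 in CA1 (median 446), from 222 to 524 in CA3 (median 379) and from 320.1 to 549.8 in DG (median 404). It was higher in CA1 than in CA3 of the same rat in 31 of 34 rats, and in 28 of 34 by the Ion Proton. The difference was 0.27 (95% interval 0.16 to 0.38, adjusted p = 8.42e-05) and 0.24 by the Ion Proton, where the adjusted p of 0.0487 stood at the edge of the rule. The call was lost with edgeR (Ion Proton adjusted p = 0.0707), with DESeq2 (0.0775), and when any one of 26 of the 34 rats was left out. In the WT libraries CA1 minus CA3 was 0.37 (limma adjusted p = 1.51e-07), with higher values in CA1 in 32 of 34 rats. CA3 minus DG was -0.33 there (limma adjusted p = 1.05e-06), a comparison not called for Hapln1 by the rule of both tables.

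Hapln2 (ENSRNOG00000018870) encodes a link protein found at nodes of Ranvier of myelinated axons. It ranged from 673 to 2882 in CA1 (median 1358), from 611 to 3508 in CA3 (median 1495) and from 399 to 1937 in DG (median 803), with ranges that overlapped widely. DG was the lowest, with CA1 above the DG library of the same rat in 31 of 34 rats and CA3 in 27 of 34. The difference of CA1 minus DG was 0.72 (95% interval 0.46 to 0.99, adjusted p = 2.81e-06) and 0.64 by the Ion Proton (adjusted p = 0.00617). The difference of CA3 minus DG was 0.86 (adjusted p = 3.25e-08) and 1.00 by the Ion Proton (adjusted p = 1.77e-05). Without the 11 libraries nearer to another subfield, these differences were 0.73 and 0.99, and both remained calls.

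Tnr (ENSRNOG00000002468) encodes tenascin-R, the cross-linker of lecticans made by oligodendrocytes and some interneurons. It ranged from 698 to 2057 in CA1 (median 1494), from 1176 to 2480 in CA3 (median 1504) and from 1221 to 1914 in DG (median 1556), and no comparison was called. The largest Illumina difference was that of CA1 minus DG, -0.11 (95% interval -0.22 to 0.00). Has3 (ENSRNOG00000020207), a hyaluronan synthase, was near the detection limit, with 3 to 44 reads per Illumina library and medians of 12.0, 10.1 and 12.2 normalised reads in CA1, CA3 and DG. By the Ion Proton, 2 libraries had no read of it. Its interval for CA1 minus CA3 ran from -0.14 to 0.36, which does not exclude a moderate difference.

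**Figure D2:**
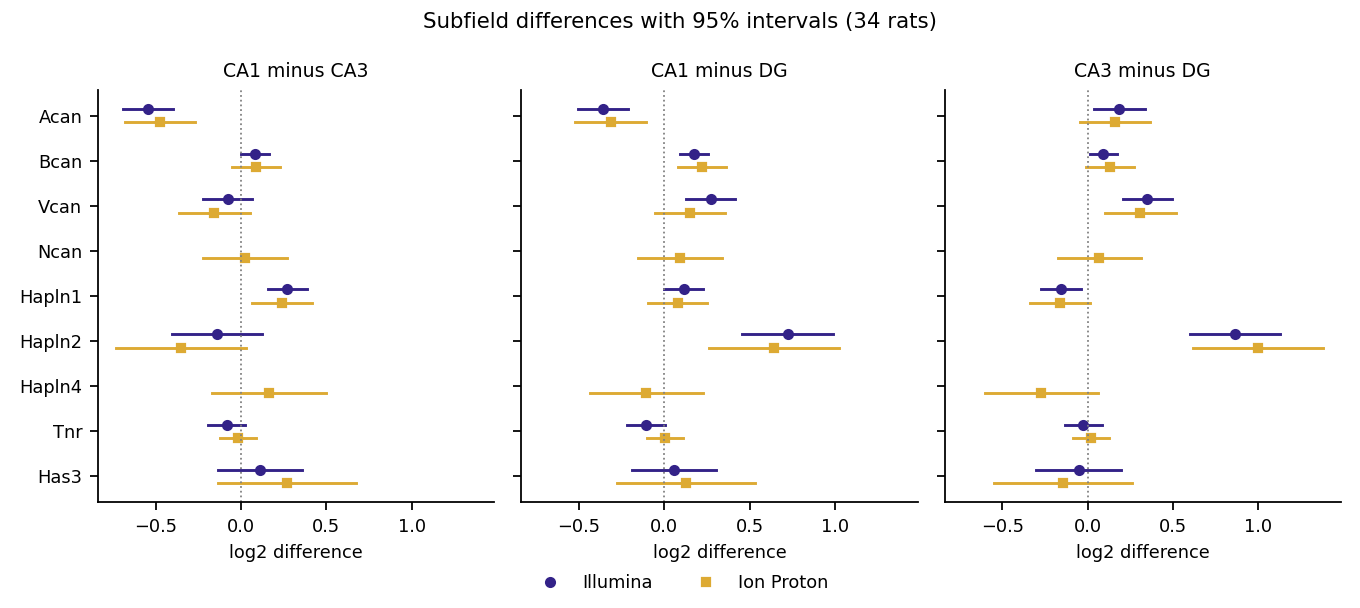
Log2 differences between subfields (x axis) of each gene (y axis) with 95% intervals, from the Illumina (circles) and Ion Proton (squares) tables over 34 rats. The intervals of Hapln2 exclude 0 in both comparisons with DG and those of Acan in both comparisons with CA1. Ncan and Hapln4 have Ion Proton values only.

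The CA3 differences of Acan, Vcan and Hapln2 differed between the rat number series, a split that was tested after the data had been seen. In rats numbered below 9000, Acan in CA3 ranged from 139 to 225 (median 168, n = 18), while in rats from 9000 up it ranged from 74.8 to 153 (median 109, n = 16). In CA1 the medians of the same rats were 94.8 and 99.3, and in DG they were 123 and 130.0. Acan in CA3 thus stood above CA1 and DG in the first series and lay among them in the second.

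The difference of CA1 minus CA3 of Acan was -0.86 in the first series and -0.19 in the second, where it was not called (Illumina adjusted p = 0.219). The difference between the series was itself called, at -0.68 (95% interval -0.92 to -0.43, adjusted p = 2.84e-06) and -1.01 by the Ion Proton (adjusted p = 4.12e-06). For CA3 minus DG the series differed by 0.70 (adjusted p = 1.04e-06, Ion Proton adjusted p = 0.000381), from 0.51, a call, below 9000 to -0.18 from 9000 up.

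Hapln2 gave the largest such gap. In rats below 9000 its DG libraries ranged from 399 to 888 (median 624) and its CA3 libraries from 1125 to 3508 (median 1693), with no overlap. In rats from 9000 up, DG ranged from 724 to 1937 (median 1184) and CA3 from 611 to 2447 (median 1320), and the ranges overlapped over most of their length. The CA1 medians were 1152 below 9000 and 1943 from 9000 up, a shift in the same direction as that of DG. CA3 minus DG was 1.55 in the first series and 0.09 in the second (adjusted p = 0.686), and the difference between the series was 1.47 (95% interval 1.08 to 1.86, adjusted p = 7.64e-10, Ion Proton adjusted p = 7.1e-05). In CA1 minus CA3 the series differed by -1.27 (adjusted p = 8.15e-08, Ion Proton adjusted p = 6.66e-05), with -0.74 below 9000 and 0.53 from 9000 up. The difference of CA1 minus DG was a call in both series, at 0.82 and 0.62.

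Vcan in DG had a median of 427 below 9000 and 671 from 9000 up, while in CA3 the medians were 628 and 659. In CA1 they were 538.5 and 746.9, so CA1 shifted in the same direction as DG. CA3 minus DG was 0.61 in the first series and 0.06 in the second, and the difference between the series was 0.55 (adjusted p = 3.46e-06, Ion Proton adjusted p = 0.0112). Thus 2 of 7 genes had a series difference in CA1 minus CA3 beside 13.9% of all genes tested, 0 of 7 in CA1 minus DG beside 0.108%, and 3 of 7 in CA3 minus DG beside 17.2%. Others differed between the series in the Illumina table alone. In CA1 minus CA3 these were Has3 by 0.98 (adjusted p = 0.000275, Ion Proton adjusted p = 0.918), Vcan by -0.39 (0.000848 and 0.268) and Bcan by 0.20 (0.0109 and 0.919). In CA3 minus DG it was Has3, by -0.79 (0.00286 and 0.762). Tnr differed between the series by the Ion Proton alone, by -0.30 in CA1 minus CA3 (Ion Proton adjusted p = 0.0147, Illumina -0.20, 0.123) and by 0.41 in CA3 minus DG (0.000587, Illumina 0.19, 0.138). For CA1 minus DG, none of the 7 genes had an unadjusted limma p under 0.05 in the Illumina table. Entering the rat as a block left these counts at 2, 0 and 3.

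**Figure D3:**
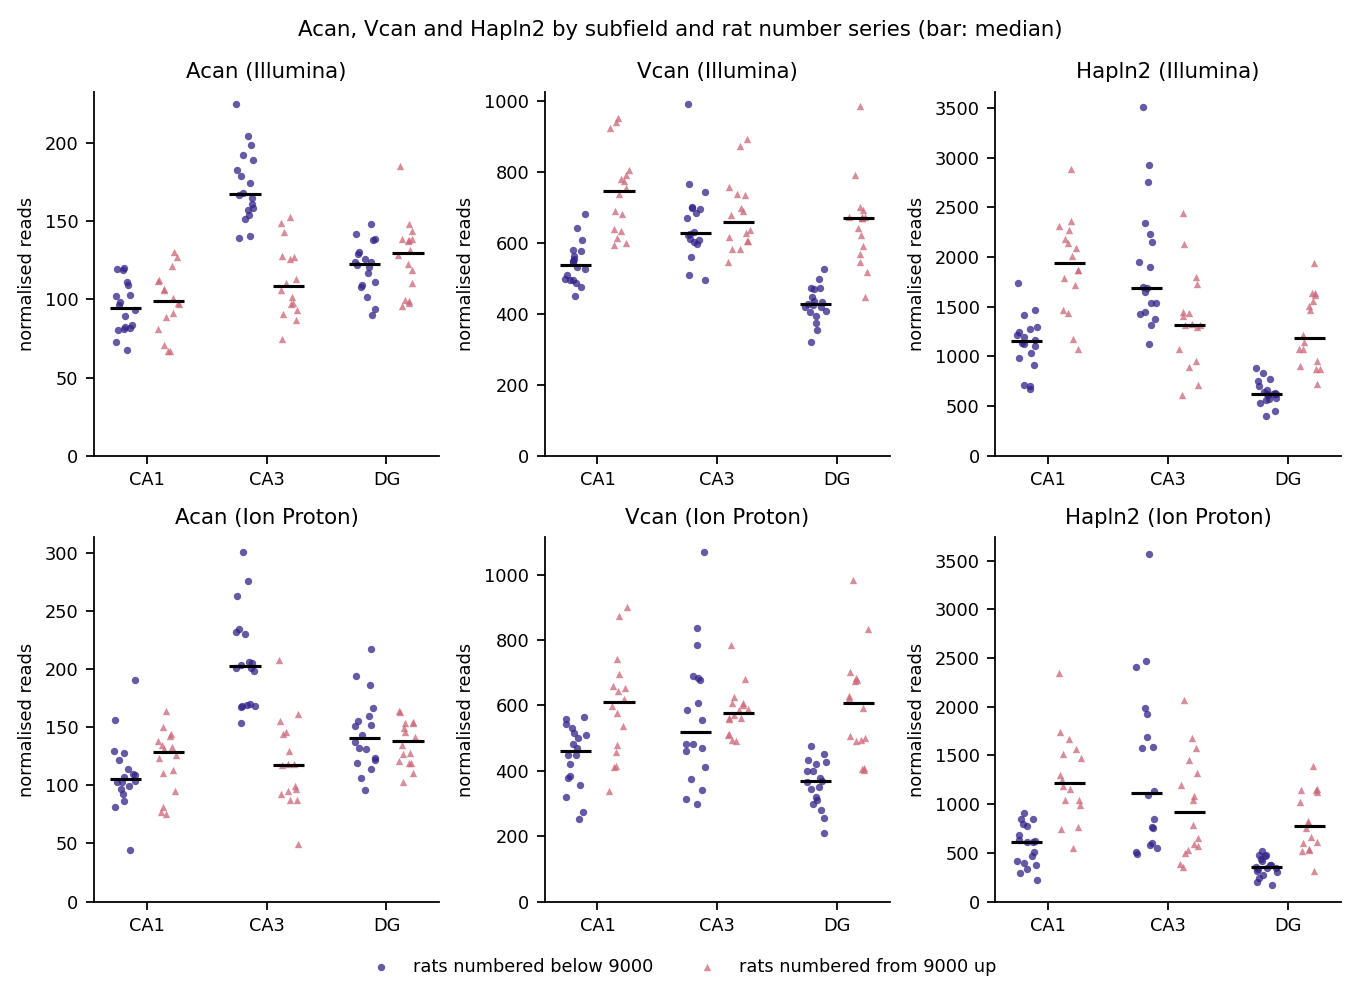
Normalised reads (linear y axis from 0) of Acan, Vcan and Hapln2 in every library, by subfield and rat number series, from the Illumina table (upper row) and the Ion Proton table (lower row); points are libraries and bars are medians. Acan in CA3 is high in rats numbered below 9000 (Illumina median 168) and not in those from 9000 up (109), and Hapln2 in DG is low in the former (624) and higher in the latter (1184).

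Marker genes moved between the series too. The summed level of 12 oligodendrocyte markers in DG ranged from 48540 to 86600 (median 60220) below 9000 and from 72450 to 235000 (median 128700) from 9000 up, and in CA3 the medians were 173900 and 122600. The sum of 7 CA3 pyramidal markers in CA3 had a median of 24090 below 9000 and 17040 from 9000 up. In DG the same sum had medians of 18370 and 18180, so it did not set CA3 above DG in the second series. Not every gene of this list was higher in CA3, since Chgb was called lower in CA3 than in DG (-0.53, Ion Proton -0.50). The sum of 6 CA1 pyramidal markers in the CA3 libraries had medians of 3259 and 6663. The sum of 5 CA2 pyramidal markers in CA3 had medians of 3763 and 2509. In DG, the sum of 6 oligodendrocyte precursor markers had medians of 3271 and 4578, and that of 6 choroid plexus markers, which ranged widely between libraries, 26.4 and 353. In CA3, 12 astrocyte markers had medians of 83700 and 107200 and 6 subiculum markers 2573 and 3962. The part of these shifts in the differences of Acan, Vcan and Hapln2 was not tested.

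Ncan (ENSRNOG00000048036), the neurocan gene, and Hapln4 (ENSRNOG00000050507), whose brain-specific link protein partners brevican at inhibitory synapses, gave a different result in each table. Ncan averaged 3.85 normalised reads over the Illumina libraries, with 0 to 15 reads in each, but 233 by the Ion Proton (92.5 to 454). Hapln4 averaged 3.06 in the Illumina table, with 0 to 13 reads per library, but 519 by the Ion Proton (137 to 1519). In the WT table they averaged 6.63 and 0.329. Expressed neighbours of the pair on chromosome 16 had no such gap, since Nr2c2ap averaged 379 by the Illumina and 286 by the Ion Proton, and Sugp1 442 and 357.

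The gap was not limited to this pair. Of 10547 genes with an Ion Proton mean over 100, 459 had an Illumina mean under 10, of which 289 were protein coding and 156 pseudogenes, and 449 of them were also under 10 in the WT table. The reverse held for 22 genes. Both genes also had an entry with nearly the same Ion Proton profile on the same chromosome. LOC102550316 held 30905 Ion Proton reads beside 24921 of Ncan (r = 0.948 over all libraries), and LOC100911378 held 55845 beside 55415 of Hapln4 (r = 0.989). In the Illumina table these entries averaged 1.78 and 4.96. The levels of Ncan and Hapln4 are therefore uncertain, and whether entries with such like profiles shared or split reads was not tested.

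**Figure D4:**
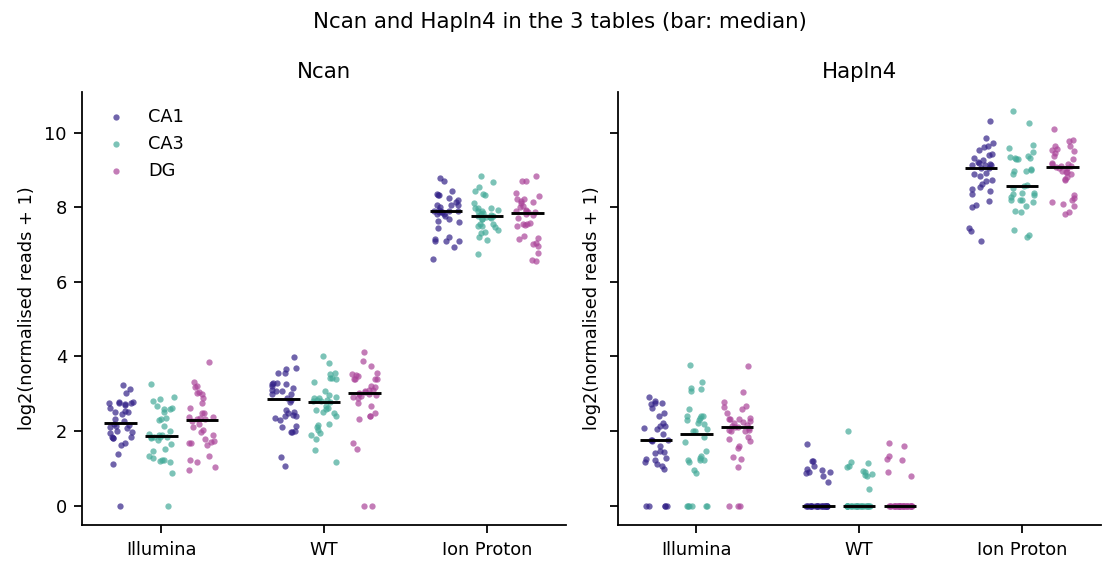
Log2(normalised reads + 1) of Ncan and Hapln4 (y axis) in every library of the Illumina, WT and Ion Proton tables (x axis), coloured by subfield; bars are medians. Ncan averages 3.85, 6.63 and 233 normalised reads in these tables and Hapln4 3.06, 0.329 and 519, so the Ion Proton points stand far above the others for both genes.

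Ion Proton values were the only ones that could be tested for these genes. Ncan ranged from 96.6 to 440.1 in CA1 (median 236), from 105 to 454 in CA3 (median 216) and from 92.5 to 454 in DG (median 230.0), with no subfield set apart. Hapln4 ranged from 137 to 1279 in CA1 (median 530.0), from 148 to 1519 in CA3 (median 382) and from 225 to 1103 in DG (median 537), and CA3 minus DG was -0.27 (95% interval -0.60 to 0.06, adjusted p = 0.221). In rats from 9000 up alone, Hapln4 was higher in CA1 than in CA3 by 0.76 (adjusted p = 0.00748) and Ncan higher in CA1 than in DG by 0.42 (adjusted p = 0.0384). The series difference of Hapln4 in CA1 minus CA3 was -1.12 (Ion Proton adjusted p = 0.00477), and that of Ncan in CA1 minus DG was -0.62 (adjusted p = 0.138). Adding the reads of the most similar entry to each gene changed no Ion Proton call in the fits that pooled both number series. A call in both tables was out of reach, since both genes were too low to test in the Illumina table. The differences within a series and between the series were not tested with these sums.

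The cell markers that moved with each gene across rats were read as correlations of residuals from the class means, averaged over the 3 subfields. Each point of a subfield is a different rat, and both members of a pair share the library, its depth, the rat and its dissection. Hapln2 followed the oligodendrocyte score closely in the Illumina table (mean r = 0.917 over 34 rats), with 0.657 among the 18 rats below 9000 and 0.901 among the 16 from 9000 up. By the Ion Proton the values were 0.649, 0.104 and 0.576, and the oligodendrocyte precursor score was closer to Hapln2 there (0.803, Illumina 0.864), with 0.729 and 0.829 within the series. Oligodendrocyte markers were called higher in CA1 than in DG for 12 of 12 genes (26.9% of all genes were called) and higher in CA3 than in DG for 12 of 12 (28.5%), as Hapln2 was. All 6 precursor markers tested were called higher in both comparisons too. The part of oligodendrocyte and precursor content in the Hapln2 difference was not tested.

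Vcan had its highest correlation in the Illumina table with the oligodendrocyte precursor score (mean r = 0.811, and 0.66 and 0.844 within the series), but 0.014 by the Ion Proton. With the oligodendrocyte score Vcan had 0.724 in the Illumina table and 0.621 by the Ion Proton. Bcan moved with the astrocyte score (0.733, and 0.501 and 0.784 within the series, Ion Proton 0.306), and by the Ion Proton more with the precursor score (0.568, Illumina 0.28). Hapln1 followed the astrocyte score less closely (0.527, Ion Proton 0.168), had 0.433 and 0.318 with subiculum markers, and had -0.107 and -0.456 with the precursor score. With parvalbumin interneuron markers Acan had a mean r of -0.116 in the Illumina table and 0.102 by the Ion Proton. With 5 CA2 pyramidal markers its mean r was 0.432 and 0.343, highest in CA3 (0.709 and 0.568). In the CA3 libraries the astrocyte score moved as much with Acan in both tables, in the opposite direction (-0.746 and -0.58). CA3 pyramidal (0.486 and 0.636) and subiculum markers (-0.464 and -0.62) did so by the Ion Proton only. Within the series, the Illumina r in CA3 was -0.12 below 9000 and 0.395 from 9000 up for CA2 markers, and -0.086 and -0.129 for astrocyte markers.

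**Figure D5:**
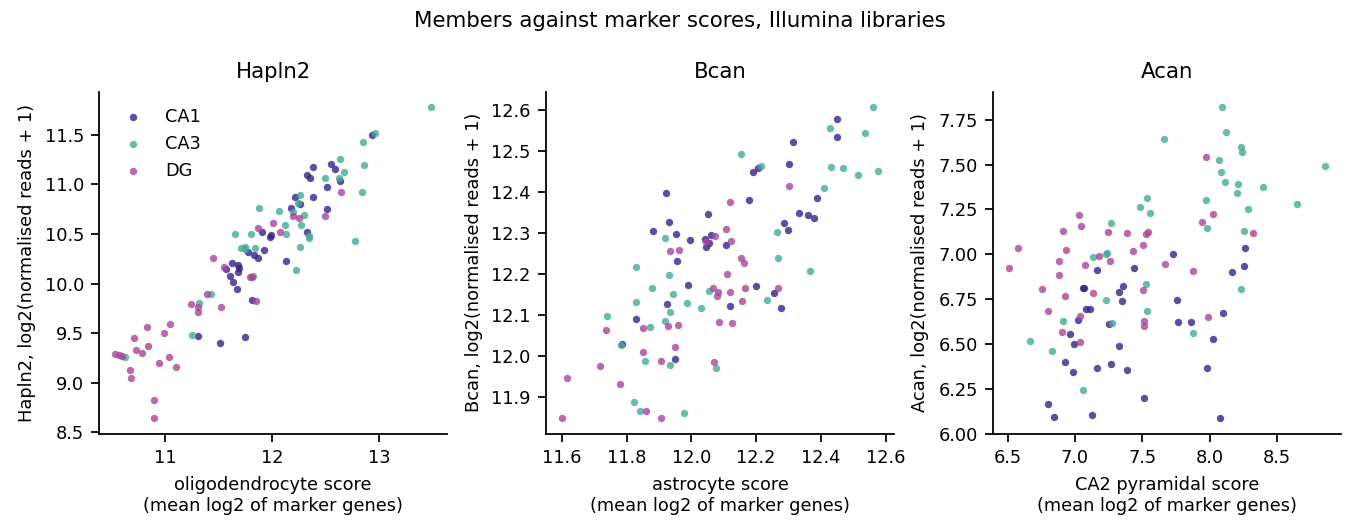
Hapln2, Bcan and Acan, as log2(normalised reads + 1) (y axes), against the mean log2 level of oligodendrocyte, astrocyte and CA2 pyramidal markers (x axes) in the Illumina libraries of 34 rats, coloured by subfield. Hapln2 rises with the oligodendrocyte score over all subfields (mean r within subfields 0.917), Bcan with the astrocyte score (0.733), and Acan spreads more widely (0.432).

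Across rats, the genes most like each of the 9 were found by the same mean r over 34 rats. Carns1 (0.974, Ion Proton 0.873) was most like Hapln2. Myo6 (0.861 and 0.808) and Sall1 (0.872 and 0.358) were most like Vcan, and Ttyh1 (0.859 and -0.021) and Glud1 (0.832 and 0.209) most like Bcan. For Acan they were Map1b (0.683 and 0.331) and Peak1 (0.683 and 0.47), and for Hapln1 RGD1309821 (0.679 and 0.124) and Tmem56 (0.679 and 0.742). LOC685707 (0.873 and 0.532) and RGD1307100 (0.867 and 0.543) came first for Tnr. The likeness of Has3 was low, with 0.479 for Gli3 and 0.477 for Magi1. In the Ion Proton table the first genes after these like-profiled entries were Calcoco1 for Ncan (0.868) and LOC102551958 for Hapln4 (0.879).

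The instruments ranked rats alike for some genes only. For Hapln2 the correlation of Illumina and Ion Proton residuals over 34 rats was 0.761 to 0.885 by subfield, for Tnr 0.622 to 0.841 and for Acan 0.285 in CA1, 0.761 in CA3 and 0.543 in DG. For Has3 it was -0.11 to 0.065, near 0. Between members, Vcan and Hapln2 had a mean r of 0.701 in the Illumina table and 0.292 by the Ion Proton, while Bcan and Vcan went from 0.374 to -0.48.

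Bcan and Hapln2 are neighbours on chromosome 2 and were both called higher in CA1 than in DG, so the 250 bases before each RefSeq start site (build GRCr8, minus strand) are shown. Of the 9 genes, 8 had such an entry. Capitals mark matches to ACAANG on either strand, the core letters recognised by SOX factors, among them the regulators of the glial lineages. Bcan (chr2:175765315-175765564) held 1 match, 47 bases before the start, and Hapln2 (chr2:175794439-175794688) held 2 that adjoin, 94 and 88 bases before it. Hapln1 and Hapln4 held 1 match each, and the other 4 genes with an entry held none.
Bcan: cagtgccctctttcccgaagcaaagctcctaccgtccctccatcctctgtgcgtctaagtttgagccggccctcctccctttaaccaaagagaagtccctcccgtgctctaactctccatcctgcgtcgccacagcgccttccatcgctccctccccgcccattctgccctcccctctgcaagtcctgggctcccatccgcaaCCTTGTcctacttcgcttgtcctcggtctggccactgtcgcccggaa
Hapln2: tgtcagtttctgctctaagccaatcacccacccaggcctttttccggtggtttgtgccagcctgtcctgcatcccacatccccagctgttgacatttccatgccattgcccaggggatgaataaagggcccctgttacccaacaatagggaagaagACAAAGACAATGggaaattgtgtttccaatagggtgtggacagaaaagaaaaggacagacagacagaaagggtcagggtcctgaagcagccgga
The letters occur in 36.9% of 33469 rat promoters of the same length, so a match is common and describes the sequence only.

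Age was tested as aged (n = 24) against young (n = 10) rats within each subfield. None of the 7 genes tested was called by limma, edgeR or DESeq2. By limma, 0.338% of 14191 genes were called in CA1, 0% of 14246 in CA3 and 0.3% of 14019 in DG. In the Illumina table, 1 of 7 had an unadjusted limma p under 0.05 in CA1, beside 6.15% of all genes. In CA3 it was 0 (3.31% of all genes) and in DG 0 (5.2%). The 1 gene was Hapln1. In CA1 it ranged from 385 to 615 in young rats (median 500.5) and from 309 to 560.0 in aged rats (median 435), with overlap, and 21 of 24 aged rats lay below the young median. The log2 difference was -0.22 (95% interval -0.37 to -0.06, p = 0.00667, adjusted p = 0.424), and -0.17 by the Ion Proton (p = 0.18), so Hapln1 does not count as changed. The Illumina difference was -0.25 in rats below 9000 and -0.18 from 9000 up. The WT libraries gave -0.22 (limma p = 0.00666, adjusted p = 0.482), with 21 of 24 aged rats below the young median.

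Of the aged classes, the impaired rats had Hapln1 values of 309 to 495 in CA1 (median 430) and differed from the young by -0.26 (p = 0.0044, adjusted p = 0.393). The unimpaired rats had values of 357 to 560.0 (median 439) and differed by -0.17 (p = 0.0502, adjusted p = 0.999). In the WT libraries the impaired differed from the young by -0.27 (limma p = 0.00248, adjusted p = 0.397). The unimpaired differed there by -0.16 (limma p = 0.0684, adjusted p = 0.873). Both classes are set against the same young rats, and the difference between them was -0.09 (95% interval -0.25 to 0.08). None of the 7 genes was called in impaired rats, where 0.12%, 0% and 0.228% of all genes were called in CA1, CA3 and DG, or in unimpaired rats, where 0.169%, 0% and 0.107% were called.

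Hapln2 had a median of 1055 in young and 1427 in aged CA1 (0.33, 95% interval -0.05 to 0.70, p = 0.0873), and 23 of 24 aged rats lay above the young median, with wide overlap. By the Ion Proton the medians were 723 and 819, the difference was 0.15 (p = 0.598), and 15 of 24 aged rats lay above the young median. For Acan the age differences in CA1, CA3 and DG were -0.12, 0.04 and -0.09, with intervals that reached from -0.33 to 0.34. The WT libraries gave -0.21, -0.05 and -0.21 for Acan. Their unadjusted limma p was 0.0283 in CA1 and 0.032 in DG, and none passed adjustment. Among the Ion Proton values, the largest age difference of Hapln4 was 0.46 in CA3 (p = 0.1, adjusted p = 1), where the young ranged from 148 to 720.3 (median 353) and the aged from 166 to 1519 (median 442).

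Between impaired and unimpaired aged rats (n = 12 each) no difference was called in the 7 genes in any subfield by limma, edgeR or DESeq2. In the Illumina table, 0 had an unadjusted limma p under 0.05. Over all genes 0% were called by limma and 5.71%, 1.4% and 3.85% had an unadjusted p under 0.05 in CA1, CA3 and DG. Over the Illumina and Ion Proton tables, the lowest p of any member was that of Ncan in the Ion Proton DG libraries, at -0.37 (p = 0.0777, adjusted p = 1). There unimpaired rats ranged from 141 to 312 (median 240) and impaired rats from 92.5 to 414 (median 184). In the WT libraries Bcan in DG had 0.20 (limma p = 0.0449, adjusted p = 0.621). For Acan in CA3 the difference was 0.16 with an interval of -0.17 to 0.48, which leaves room for a change within those bounds. Tests of whether an age or cognition difference itself differed between subfields gave no call among 42 for the Illumina table (lowest adjusted p 0.959) and 54 for the Ion Proton, and 0 with an unadjusted p under 0.05 in either. Over all genes of the Illumina table, an unadjusted p under 0.05 was reached by 1.93%, 0.353% and 1.06% for the age effect and by 4.56%, 3.48% and 1.84% for the cognition effect, in CA1 minus CA3, CA1 minus DG and CA3 minus DG, and 0% were called.

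Other genes of matrix assembly and removal were counted by list, with the same rule of call. The shares of all genes called were 14.4% in CA1 against CA3, 26.9% in CA1 against DG and 28.5% in CA3 against DG, and the counts of each list are given in this order. Of 10 further net and link genes tested, 2, 5 and 4 were called. Nptx1, which encodes a secreted pentraxin of excitatory synapses, was lower in CA1 than in CA3 (-0.55) and DG (-1.20) and lower in CA3 than in DG (-0.65). Sema3a, a guidance cue that nets can bind, was higher in CA1 than in DG by 1.46. Crtac1 was lower in CA1 than in CA3 (-0.65), and Cspg4, the NG2 proteoglycan of oligodendrocyte precursors, was higher in CA3 than in DG (0.43).

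Of 19 genes of chondroitin sulphate synthesis, 4 were called in CA1 against CA3 (2 higher, 2 lower, beside 14.4% of all genes), 3 in CA1 against DG (all lower in CA1, beside 26.9%) and 5 in CA3 against DG (4 lower in CA3, beside 28.5%), shares near or under those of all genes. Chst15, which makes the doubly sulphated E-type unit, was higher in CA1 than in CA3 (0.83) and lower in CA3 than in DG (-1.01). Chst11, a chondroitin sulphotransferase, was lower in CA1 than in CA3 (-0.45) and DG (-0.68), Chst7 was lower in CA1 than in DG (-0.54), and Csgalnact1, which starts chains, was lower in CA3 than in DG (-0.58).

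Of 16 matrix proteases and inhibitors, 1, 10 and 10 were called, beside 14.4%, 26.9% and 28.5% of all genes. Against DG, 8 of the 10 were higher in CA1 and 7 of the 10 higher in CA3, with a list median of 0.38 and 0.30, beside 0.00 and 0.01 over all genes. Mmp9 (1.31) and the aggrecanase Adamts1 (0.79) were higher in CA1, the aggrecanase Adamts4 was higher in CA3 (0.93), and the plasminogen activator Plau was lower in CA3 (-0.84). Plat was lower in CA1 than in CA3 (-0.26). The oligodendrocyte markers that moved with these subfields are given above, and their part in the protease differences was not tested.

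Of 8 genes of hyaluronan breakdown, 1, 5 and 3 were called, beside the same 14.4%, 26.9% and 28.5%. Cemip, which is needed for hyaluronan cleavage, was higher in CA1 than in CA3 (0.93) and lower than in DG in both CA1 (-0.53) and CA3 (-1.46). Gusb was higher in CA1 than in DG (0.38), and Hyal1 higher in CA3 than in DG (0.44). Of 9 receptors, 1, 6 and 6 were called, beside the same shares of all genes. Layn (0.69 and 0.51 in CA1 and CA3 over DG) and Cd44 (0.55 in CA1 over DG), both receptors of hyaluronan, were lower in DG, while Rtn4r was lower in CA3 than in DG (-0.53). Ptprs, a receptor of chondroitin sulphate, was lower in CA1 than in CA3 (-0.25).

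With age, the single call of these lists was 1 of 8 genes of hyaluronan breakdown in CA1, where 0.338% of all genes were called. It was Hexa, a lysosomal hexosaminidase subunit, 0.20 higher in aged rats (95% interval 0.11 to 0.28, adjusted p = 0.0167) and 0.32 by the Ion Proton (p = 0.00148). With cognition none was called, and 1 of 19 genes of chondroitin sulphate synthesis and 1 of 9 further net and link genes passed the retest in CA1, as did 0.635% of all genes. Ust (0.42, adjusted p = 0.6), a uronyl sulphotransferase, and Sema3a (0.78, adjusted p = 0.644) had an unadjusted p under 0.01 in impaired CA1 and a one-sided p under 0.05 in the same direction by the Ion Proton.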

How the data were processed

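Poly-A RNA of CA1, CA3 and DG from 34 rats was sequenced on an Illumina and an Ion Proton, with 3 libraries per rat in each table. The submitters' processing notes name bcl2fastq 2.17, cutadapt 1.8.3, STAR 2.5, featureCounts 1.4.4, DESeq2 1.16.1 and build rn5, and the methods give TopHat2 and Bowtie2 for the Ion Proton reads. The values deposited are a signal, read counts that the authors divided by a size factor per library, and whole reads were recovered for 100.0% of values (tolerance 0.01). The labels name a stranded kit and the methods an unstranded one, so use of strand in counting is uncertain. The WT libraries (3.54 to 20.6 M reads, median 8.07 M), whose preparation is not given in the sources used here, served as an alternative.

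Log2(value + 1) was fitted with limma 3.58.1 (trend) in R 4.3.3 over genes with a mean of at least 10, with Benjamini-Hochberg adjustment over all genes tested and no block. The subfield fit held all 34 rats, and age, cognition and class fits were made within a subfield. A subfield call needed an adjusted p under 0.05 in both tables with the same sign, and an age, cognition or class call an adjusted p under 0.05 in the Illumina table. A difference was retested when its unadjusted Illumina p was under 0.01 and its one-sided Ion Proton p under 0.05. The scripts were tested on simulated data. Alternatives were a pseudocount of 0.1, no filter, quantile normalisation, edgeR 4.0.16 and DESeq2 1.42.0 on recovered reads, the WT table, omission of each rat, of the deepest rats or of libraries nearer to another subfield, the rat as a block, and the rat number series as covariate or subset. The series subsets of the subfield differences, the test between the series and the sums with like-profiled entries were chosen after the data had been seen. Libraries of different subfields pair because they come from the same rat. The residuals of such pairs had a median r of 0.111 (lowest -0.454), against -0.00595 for different rats. Nothing in the labels marks the rats as separate litters, so p-values measure the spread between these rats. Counts per library limit precision through counting error only.

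The members and all lists were chosen with earlier results of these data known. All 9 members are named, with up to 2 genes per pathway list and subfield comparison that had the largest Illumina difference among those called, any listed gene called or retested for age or cognition, and the 2 genes most like each member, of which 1 is not reported here. Entries without a symbol (48) were kept in the fits. Promoters came from RefSeq (GRCr8). Figures were drawn with Python 3.11.15 and matplotlib 3.10.9.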

Additional observations from a re-analysis of the deposited data

Results flagged for a closer look

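The number series of the rats separated several subfield differences by a test of the difference itself, rats below 9000 minus rats from 9000 up. For Acan it was -0.68 in CA1 minus CA3 and 0.70 in CA3 minus DG, for Hapln2 it was -1.27 in CA1 minus CA3 and 1.47 in CA3 minus DG, and for Vcan it was 0.55 in CA3 minus DG. Marker sums differed between the series as well, as given above, and their part in these differences was not tested.

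Among 48 groups of 10 young libraries, 6 had a highest value set apart from the next by more than Dixon's critical share of the range, where chance gives about 1 group in 20. In the Illumina table Hapln2 in DG reached 1937 in 1 rat (next 1073), and Vcan in DG reached 986 in the same rat (next 674). That library also had the highest oligodendrocyte score of the DG libraries, a mean log2 level of 12.64 (next young DG library 11.82). Vcan in CA3 reached 993 (next 738), in the library with the highest oligodendrocyte score of all (13.49, next 12.97). The part of oligodendrocyte content in these values was not tested. Has3 in CA1 reached 32.5 (next 18.0). By the Ion Proton, Hapln4 in DG reached 1103 (next 703), in the rat with the high Vcan in CA3, and Has3 in DG reached 35.1 (next 19.2).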

How the results depend on the processing

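Of 1481 values of the genes under the alternatives, 1461 stayed on their side of the threshold, 13 lost a call and 7 gained one. No called value changed sign, and 135 of 1404 uncalled values did. The 2 calls in CA1 against CA3 became 1 with a pseudocount of 0.1, without a filter, with edgeR and with DESeq2, where Hapln1 was lost, and 0 in rats from 9000 up alone. Leaving out each rat gave 1 to 2 calls there, with Hapln1 lost without any of 26 rats. In CA3 against DG the 2 calls became 1 in rats from 9000 up, where Vcan and Hapln2 were lost and Bcan was gained (0.17). The genes retested for age in CA1, and for impaired against young in CA1, numbered 0, and 0 to 1 when each rat was left out (Hapln1, without either of 2 rats for age and without any of 5 rats for the impaired). With the rat as a block in the subfield fit the calls of the genes stayed at 2, 3 and 2, and over all genes 2240, 4142 and 4361 were called in place of 1996, 3739 and 3957. No paired analysis was possible for age, cognition or class because those groups share no rat. Over all genes, the 1996 calls in CA1 against CA3 became 3023 in rats below 9000 and 551 in rats from 9000 up, and the 3739 in CA1 against DG became 1104 higher and 1072 lower in rats below 9000. The 48 age calls in CA1 ranged from 1 (rats from 9000 up) to 112 (series as covariate), with 24 by edgeR and 21 with the WT table. The 0 in CA3 ranged to 20 (DESeq2), and the 42 in DG from 6 (rats from 9000 up) to 93 (covariate), with 68 by DESeq2 and 16 with the WT table. The 0 for cognition in CA1 became 6 by DESeq2, and the 0 for the age effect in CA1 against CA3 became 16 by edgeR. Calls of impaired against young ranged from 0 to 36 in CA1 (17), 0 to 12 in CA3 (0) and 9 to 81 in DG (32), and those of unimpaired against young from 1 to 66 (24), 0 to 2 (0) and 0 to 41 (15). The causes of these shifts were not tested. Has3 had only 3 to 44 Illumina reads per library, so its values carry a large counting error.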
